A study of Mus musculus with 24 samples.

Results

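RNA bound to the double-stranded RNA-binding protein STAU2 was compared between E15.5 and E13.5 cortex of C57BL/6 mouse embryos, with 3 immunoprecipitated libraries at each age. Both ages are given in embryonic days, and both groups were of the same strain, with no mutation or treatment named in the labels. RNA was recovered with an antibody to STAU2, depleted of ribosomal RNA and sequenced. The comparison used every row of the merged peak list that carried a gene symbol and was not recorded as intergenic: 14292 of 18975 rows, in 7967 genes. Such a row, one peak on one strand of one gene, is called a feature here. The count columns carry a code that the labels give to both the immunoprecipitated and the input library of a number, and they were read as the immunoprecipitated ones. Levels in input RNA were not analysed here, so an altered amount of an RNA in the tissue and altered binding to STAU2 cannot be told apart. In whole tissue, fewer cells of a type and less RNA per cell cannot be told apart either. Whether the libraries of a stage came from separate litters or pools is not stated, so p-values measure the spread between these libraries.

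Staufen proteins bind stems in RNA through double-stranded RNA-binding domains and carry RNAs in granules along microtubules. STAU2 is the family member enriched in the nervous system. In the developing cortex it is known for its unequal inheritance when radial glia, the cortical stem cells, divide, with much of it passing to intermediate progenitors, and in neurons it is found in dendritic RNA granules. Between the ages compared, the cortex passes from making mainly deep-layer neurons towards making upper-layer neurons.

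The total count over gene rows was 5838544 to 6372132 in the E15.5 libraries and 6000348 to 6328346 in the E13.5 libraries. The median feature had 84 to 103 counts at E15.5 and 78 to 89 at E13.5. Libraries of the E11.5 and E17.5 cortex, 3 each, were in the same fit to estimate the spread. The scaling factors of the E11.5 libraries, 0.49 to 0.604, stood apart from the 1.248 to 1.409 at E15.5 and 1.152 to 1.236 at E13.5. Without the E11.5 libraries, 50 features and 44 genes were called in place of 45 and 53. Markers of the labelled tissue were present at both ages: the cortical neuron gene Neurod6 had 1420, 688 and 796 CPM (gene-row counts divided by the scaled library size) at E15.5, against 921, 649 and 689 CPM at E13.5.

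Few features differed between the ages. Of 14101 features with enough counts to test, 45 passed an adjusted p of 0.05 in edgeR's quasi-likelihood test, which is 0.319% of those tested. Of these, 6 were higher at E15.5 (0.0426%) and 39 were lower (0.277%). At an unadjusted p under 0.05 there were 965 (6.84%). The 39 lower features lay in 32 genes, and 14 of the 39 were in genes of the list for meninges and mesenchyme. That list held 23 of the 7873 genes tested as gene sums. The 6 higher ones lay in 6 genes, all on the lists for ion channels, presynaptic proteins, deep-layer neurons or interneurons. Those lists held 18, 21, 16 and 12 tested genes. All lists were chosen with earlier results of these data known, so these counts are descriptive. The same fit called 2431 features (17.2%) between E13.5 and E11.5 and 1843 (13.1%) in the last step, E17.5 set against E15.5, and the median size of the change over all features, on the log2 scale, was 0.29 at E15.5 against E13.5, 0.59 in the step before and 0.52 in the step after. These steps share libraries with the one described. With the replicate number as a block, 75 features were called, 18 higher and 57 lower, and these included all 45. Scaled by the total of the gene rows, which moves the median of all features by 0.19 on the log2 scale, 9 were higher and 27 lower. Leaving out 1 library gave 19 to 31 calls, the fewest without E15.5 replicate 1. Each of the 6 higher features lost its call when 1 library or another was left out, with an edgeR adjusted p of up to 0.0569 for Abcc8 (without E13.5 replicate 1 only) and up to 0.233 for Dlx2.

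**Figure D1:**
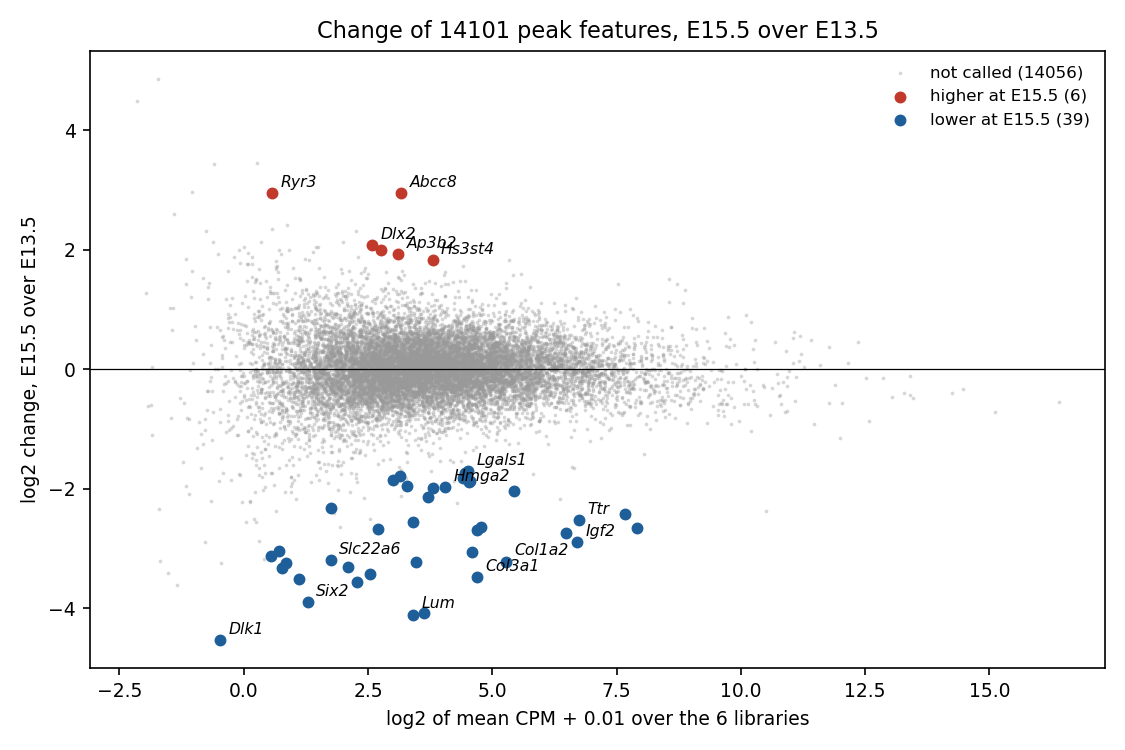
Log2 change of each of 14101 features (E15.5 over E13.5) against log2 of its mean CPM over the 6 libraries, with 0.01 added; red points passed the test as higher at E15.5 (6), blue points as lower (39). The lower features reach a log2 change of -4.53 and the higher ones 2.95.

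The sequences below are from the features with the largest changes, since STAU2 binds paired RNA. Each is the 30-base window around the stem with the lowest predicted folding energy in the longest exon stretch of the peak, with bases predicted to pair in capitals, read 5′ to 3′ from GENCODE vM21 transcripts (GRCm38) and folded with RNALfold. The first 3 had the largest falls and the last 3 the largest rises.
Dlk1, exon, chr12:109455019-109455048, plus strand: tggattCTGCgAGGCtgacaatGTCTGCAG
Lum, 3′ UTR, chr10:97572222-97572251, plus strand: aaaGATGAAAAGcaggccTTTTTCATCctg
Lum, exon, chr10:97568905-97568934, plus strand: CCGGatGAGTaCTtcaAGcGCTTcaCTGGg
Ryr3, 3′ UTR, chr2:112631967-112631996, minus strand: aaAGTGTCAaGGaatccaCCTGACtGCTaa
Abcc8, exon, chr7:46114961-46114990, minus strand: tagCTGtGGTGtgctacttCATCCAGaaat
Dlx2, exon, chr2:71545408-71545437, minus strand: GCCctGCCAGagCGagcCGagCTGGCGGCg
The Dlx2 window had the lowest energy of the 6, -14.7 kcal/mol, and the Abcc8 window the highest, -6.1 kcal/mol. In the order listed, the exon stretches searched were 40, 435, 276, 323, 77 and 105 bases long. A longer stretch offers more stems to choose from, so these 6 energies are not like for like. Over the central 100 bases of each exon stretch long enough to fold, the best such stem had a median energy of -6.2 kcal/mol in 5 risen features, -8.15 kcal/mol in 32 fallen features and -8.3 kcal/mol in all 11119 features. These are predictions from sequence and carry no test.

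Genes of the meninges, the connective tissue sheets over the brain, and of mesenchyme held more fallen genes than any other of the 25 lists described. The lists were chosen with earlier results of these data known, so this ranking and the counts below are descriptive and not an independent test. Of 44 genes on that list, 23 were tested as gene sums; 12 fell, none rose and all 23 had a log2 change below 0. Their median log2 change was -2.34, against 0.00 over all 7873 genes tested, of which 50.2% were below 0. Their summed level was 152 to 178 CPM in E15.5 libraries and 621 to 674 CPM in E13.5 libraries. Over all genes, 53 were called (0.673%), 14 higher (0.178%) and 39 lower (0.495%). The list's 12 became 6 without E15.5 replicate 1 or without E15.5 replicate 3. Over all genes, leaving out 1 library gave 11 to 35 calls; the gene sums of Lum, Col1a1, Col1a2, Col3a1, Dcn, Six2, Ttr, Igf2 and Pcp4l1 kept their call each time, and those of the other called genes, all 14 risen ones among them, lost it at least once.

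Lum encodes lumican, a proteoglycan that binds collagen fibrils. Its summed peaks had 2.80, 2.56 and 2.14 CPM at E15.5, against 41.7, 47.1 and 41.5 CPM at E13.5. All E15.5 libraries were far below all E13.5 libraries, with a log2 change of -4.11 ± 0.33 (SE; edgeR adjusted p = 8.34e-06). The 3′ UTR and exon peaks had log2 changes of -4.11 and -4.08.

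Col1a1 and Col1a2 encode the chains of type I collagen. Col1a1 had 16.4, 17.2 and 14.4 CPM at E15.5, against 106, 113 and 90.2 CPM at E13.5. The groups did not overlap, and the log2 change was -2.68 ± 0.23 (SE; edgeR adjusted p = 1.44e-05). Col1a2 had 6.70, 7.95 and 7.55 CPM at E15.5, against 72.4, 52.4 and 84.5 CPM at E13.5, again without overlap (log2 change -3.23 ± 0.30, SE; edgeR adjusted p = 2.18e-05). Col3a1, type III collagen, had 3.53, 6.60 and 2.59 CPM at E15.5, against 47.2, 46.4 and 49.4 CPM at E13.5. Its E13.5 libraries lay close together and all its E15.5 libraries were below them (log2 change -3.50 ± 0.42, SE; edgeR adjusted p = 0.000364). Dcn, the collagen-binding proteoglycan decorin, had 6.82, 4.58 and 3.94 CPM at E15.5, against 48.6, 34.5 and 46.5 CPM at E13.5 (log2 change -3.07 ± 0.34, SE; edgeR adjusted p = 0.000178).

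The other fallen members of this list were matrix or signalling genes and transcription factors. Their log2 changes were -3.90 for Six2, a homeobox factor of mesenchyme, -3.54 for Twist1, a factor of mesenchymal cells, -3.57 and -1.83 for the bone morphogenetic proteins Bmp4 and Bmp7, -3.44 for Serpinf1, a secreted anti-angiogenic protein, -2.56 for Col6a2, a type VI collagen chain, and -2.05 for Bgn, the proteoglycan biglycan. Foxc1, a forkhead factor needed for the meninges, had a log2 change of -2.38 that did not pass (edgeR adjusted p = 0.0833); its peak passed with the replicate block (adjusted p = 0.0494).

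**Figure D2:**
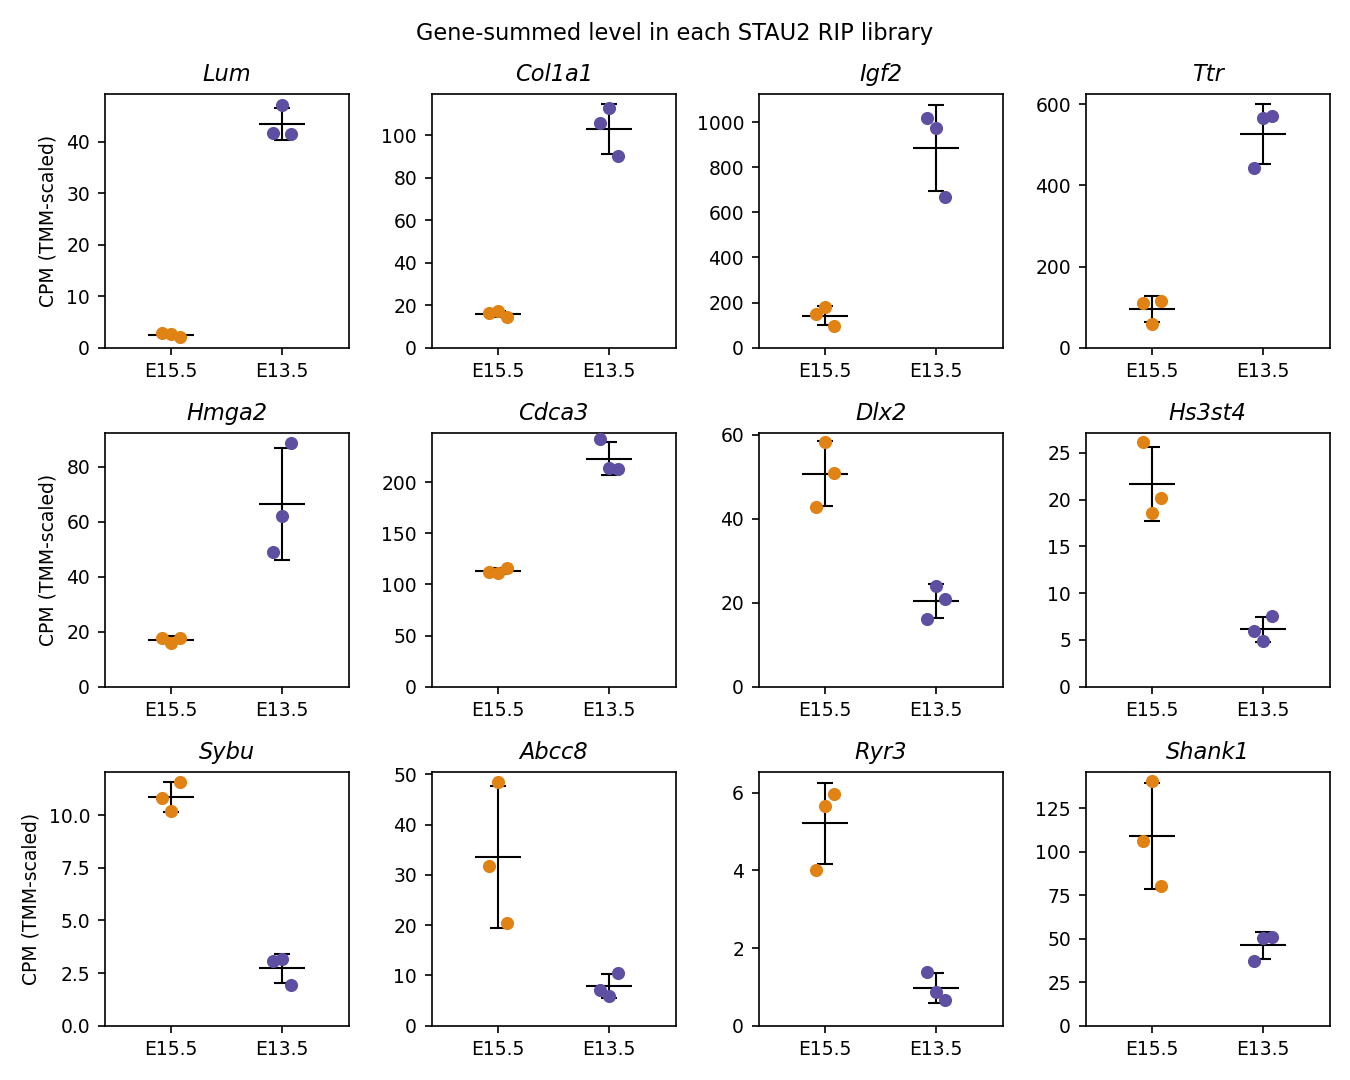
Gene-summed CPM in each of the 3 libraries at E15.5 (left, orange) and E13.5 (right, purple) for 12 genes; bars are mean ± SD and each axis starts at 0. Lum, Col1a1, Igf2, Ttr, Hmga2 and Cdca3 were lower in every E15.5 library than in any E13.5 library, and the other 6 genes were higher; the gene-summed change of Hmga2 did not pass the test.

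Of 8 endothelial and pericyte genes tested, 2 fell and 7 were below 0, with a median of -1.47. All E15.5 libraries were below all E13.5 libraries for 5 of the 8, against 7.56% of all genes tested. The fallen ones were Col4a1 and Col4a2, the type IV collagens of basement membrane, with log2 changes of -1.68 and -1.53. Neither passed without E15.5 replicate 2 or without E15.5 replicate 3. With 1 library left out, Col4a2 kept its call only without E13.5 replicate 3. A peak of Nid1, a basement membrane linker, fell by 2.33, while its gene sum missed the threshold (edgeR adjusted p = 0.0514, and 0.0237 with the replicate block). Cdh5 and Kdr, which define endothelium, had log2 changes of -1.11 and -0.35 and did not pass. The gene sums that fell elsewhere had log2 changes of -1.75 for Cd248, a stromal membrane protein, -1.49 for Sulf2, a heparan sulfate sulfatase, -1.72 for Lgals1, galectin-1, -1.83 for S100a11, a calcium-binding protein, -1.74 for Apod, apolipoprotein D, -3.21 for Slc22a6, an organic anion transporter, -3.31 for Cped1 and -2.03 for Loxl2, a collagen cross-linking enzyme. Of 6 microglia and macrophage genes tested, Pf4, a chemokine, fell by 3.34, a call lost whichever library was left out. Both erythroid genes tested, Ermap and Alas2, were near the detection limit in all 6 libraries, with a list sum of 0.225 to 0.943 CPM at E15.5 and 0.858 to 1.04 CPM at E13.5. What part cells of these types had in the calls was not tested.

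Ttr encodes transthyretin, the thyroid hormone carrier made in bulk by the choroid plexus. It had 111, 58.9 and 116 CPM at E15.5, against 442, 567 and 570 CPM at E13.5. All E15.5 libraries were lower, and the log2 change was -2.47 ± 0.31 (SE; edgeR adjusted p = 0.000654). Of the other 4 choroid plexus and cortical hem genes tested, none passed; Otx2, a homeobox factor of the choroid plexus, had a log2 change of -2.23 (edgeR adjusted p = 0.169).

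The gene sums of Igf2, Igf1 and Dlk1 fell as well; the call of Igf1 was lost without E15.5 replicate 1, that of Dlk1 without any 1 library other than E13.5 replicate 2, and that of Igf2 was kept in each case. Igf2, an imprinted insulin-like growth factor, had 150, 179 and 97.9 CPM at E15.5, against 1020, 972 and 668 CPM at E13.5. The groups were well apart (log2 change -2.64 ± 0.31, SE; edgeR adjusted p = 0.000364), and of its 4 peaks, 2 in the 3′ UTR and the one in the 5′ UTR were called, and the remaining 3′ UTR peak had an adjusted p of 0.0995, or 0.00681 with the replicate block. Igf1, the related growth factor, had 0.365, 0.135 and 0.789 CPM at E15.5, against 2.92, 3.15 and 5.45 CPM at E13.5; it fell by 3.06 as a gene sum, though no single peak passed (with the replicate block, its exon peaks had adjusted p-values of 0.043 and 0.0439). Dlk1, an imprinted transmembrane protein related to Notch ligands, had 1 count in all at E15.5 and 31 at E13.5. The E13.5 level was 34.6 times that at E15.5, with a 95% counting interval of 5.76 to 1410 that covers counting error only.

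Of 3 Hmga2 peaks, 1 was called, and a second 3′ UTR peak passed with the replicate block (edgeR adjusted p = 0.0357, against 0.0995 without the block). Hmga2, a chromatin protein of young neural stem cells, had 6.61, 6.04 and 7.35 CPM in the called 3′ UTR peak at E15.5, against 18.1, 30.8 and 30.2 CPM at E13.5 (log2 change -1.98 ± 0.43, SE; edgeR adjusted p = 0.0344). The groups did not overlap. Its gene sum had a log2 change of -1.96 and missed the threshold (adjusted p = 0.0784). Lin28b, an RNA-binding protein that blocks let-7 maturation, had 1 count at E15.5 and 14 at E13.5 and did not pass (edgeR adjusted p = 0.142). As gene sums, Tfap2b, a transcription factor, had a log2 change of -3.06 and Ebf2, a factor of Cajal-Retzius cells, -1.92. Those of Tpd52l1, Pcp4l1 and Zfp568, a zinc finger protein, were -3.13, -3.22 and -3.26, and that of Rad51b, a DNA repair gene whose called peak is intronic, was -1.51; all 6 passed. Of the 5 Cajal-Retzius genes tested, Ebf2 was the only one called, 3 were above 0 and the median was 0.27. The other 3 fallen features were in 2 unnamed gene models.

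None of 27 mitosis genes tested passed, 26 had a log2 change below 0, and the median was -0.66; 9 had all E15.5 libraries below all E13.5 libraries, against 7.56% of all genes tested. Tpx2, a spindle assembly factor, had 85.0, 81.0 and 105 CPM at E15.5, against 142, 161 and 172 CPM at E13.5 (log2 change -0.81; edgeR adjusted p = 0.164). None of 16 DNA replication genes passed, with a median of -0.33 and 15 below 0. Outside these lists, the gene sums of Cenph, a kinetochore protein, and Cdca3, a regulator of mitotic entry, fell, with log2 changes of -1.28 and -0.98 (for Cdca3, edgeR adjusted p = 0.0484, and 0.0533 with the replicate block). So did Dab2, an endocytic adaptor (-2.08), Ror2, a Wnt receptor (-1.32), and Rbms1, an RNA-binding protein (-1.22).

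**Figure D3:**
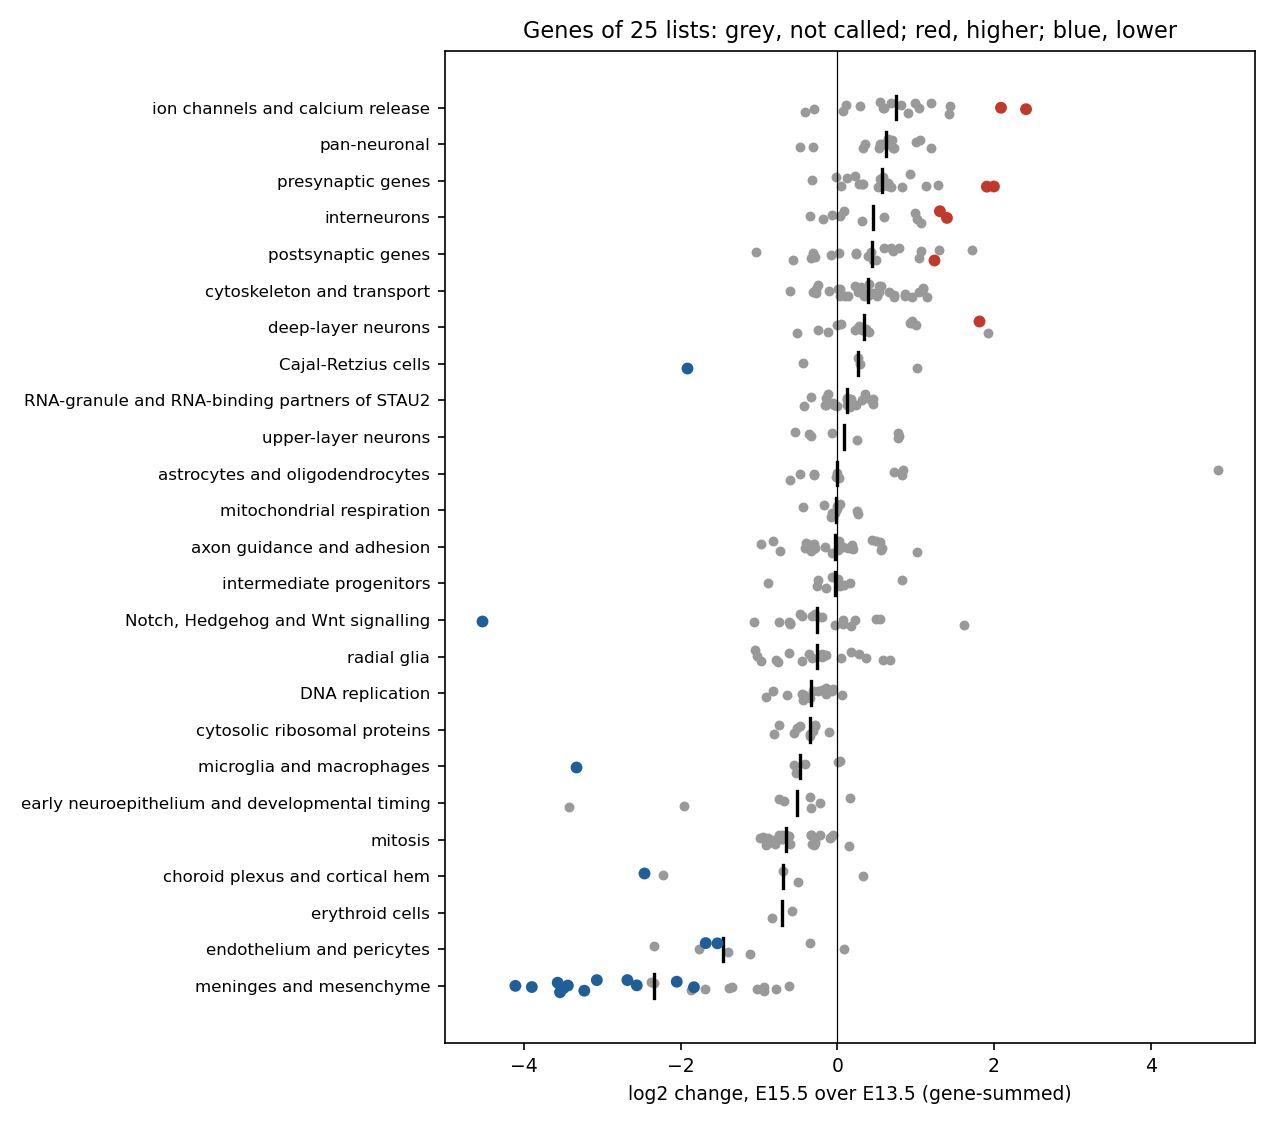
Log2 change (E15.5 over E13.5) of the gene-summed counts of each tested gene in 25 lists, ordered by median (black bar); red points passed the test as higher, blue points as lower, grey points did not pass. The meninges and mesenchyme list has the lowest median, -2.34, and ion channels the highest, 0.75.

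Of 18 ion channel and calcium release genes tested, 2 rose, 16 had a log2 change above 0 and the median was 0.75; without E13.5 replicate 2 none passed, and without any other 1 library 1 did. Ryr3, a channel that releases calcium from internal stores, had 4.02, 5.66 and 5.97 CPM at E15.5, against 1.39, 0.858 and 0.649 CPM at E13.5. The groups did not overlap (log2 change 2.41 ± 0.40, SE; edgeR adjusted p = 0.0117). Abcc8, the sulfonylurea receptor of ATP-sensitive potassium channels, had 31.8, 48.4 and 20.4 CPM at E15.5, against 7.08, 5.87 and 10.5 CPM at E13.5. Its E15.5 libraries were spread but all above those of E13.5 (log2 change 2.09 ± 0.37, SE; edgeR adjusted p = 0.0117).

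Of 21 presynaptic genes tested, 2 rose and 19 were above 0, with a median of 0.57. Neither call held without E13.5 replicate 1 or without E15.5 replicate 1, and 1 of them held without any other 1 library. Sybu, syntabulin, which links syntaxin vesicles to kinesin, had 10.8, 10.2 and 11.6 CPM at E15.5, against 3.06, 3.15 and 1.95 CPM at E13.5 (log2 change 2.0 ± 0.37, SE; edgeR adjusted p = 0.0157). Ap3b2, the neuronal subunit of an adaptor complex for vesicle sorting, had 12.4, 20.6 and 7.77 CPM at E15.5, against 2.50, 3.58 and 4.67 CPM at E13.5 (log2 change 1.91 ± 0.37, SE; edgeR adjusted p = 0.0207). In both genes every E15.5 library was higher. Of 22 postsynaptic genes, Shank1, a scaffold of excitatory synapses, rose by 1.24 on the log2 scale, with 106, 141 and 80.3 CPM at E15.5 and 37.1, 50.4 and 51.1 CPM at E13.5; its call was lost without any 1 library other than E15.5 replicate 3. The kinase gene Camk2b had a log2 change of 1.72 that did not pass (edgeR adjusted p = 0.11). Of the 22 postsynaptic genes, 16 were above 0 and 6 below, with a median of 0.44. Their summed level was 3400 to 4700 CPM in E15.5 libraries and 4730 to 5790 CPM in E13.5 libraries.

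Of 16 deep-layer neuron genes tested, 12 were above 0 and 4 below, with a median log2 change of 0.34. Hs3st4, a heparan sulfate sulfotransferase expressed in layer 6, rose, and the others did not pass. It had 26.1, 18.6 and 20.2 CPM at E15.5, against 5.97, 4.86 and 7.53 CPM at E13.5 (log2 change 1.81 ± 0.30, SE; edgeR adjusted p = 0.00957). The groups lay far apart, but the call was lost without E13.5 replicate 1 and without E15.5 replicate 1. Of 8 upper-layer neuron genes tested, none passed, 4 were above 0 and 4 below, and the median was 0.09. None of 16 pan-neuronal genes passed, 14 being above 0 with a median of 0.62; Snap25, of the vesicle fusion machinery, had 137, 161 and 168 CPM at E15.5, against 73.5, 77.5 and 71.6 CPM at E13.5 (edgeR adjusted p = 0.0972). None of 34 cytoskeleton and transport genes passed, 28 being above 0 with a median of 0.40. Gene sums that rose without a called peak were Stmn4 (1.04), a tubulin-binding stathmin, Shtn1 (1.30), shootin of growing axons, Plk2 (1.29), a kinase of synapse remodelling, Mpped1 (1.47), Trim67 (1.61) and Rimbp2 (2.11), a binding protein of the presynaptic active zone, on the log2 scale. With the replicate block, peaks of Rimbp2, Mpped1 and Trim67 passed (edgeR adjusted p = 0.0121, 0.043 and 0.0499).

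Of 12 interneuron genes tested, 2 rose, 9 were above 0 and the median was 0.46. None passed without E13.5 replicate 1, E13.5 replicate 3, E15.5 replicate 1 or E15.5 replicate 2, and 1 passed without either of the other libraries. Dlx2 and Dlx5 are homeobox factors of the ganglionic eminences, from which inhibitory neurons migrate into the cortex. Dlx2 had 42.9, 58.3 and 51.0 CPM at E15.5, against 16.1, 24.0 and 21.0 CPM at E13.5 (log2 change 1.31 ± 0.25, SE; edgeR adjusted p = 0.0163). Dlx5 had 41.4, 49.6 and 30.3 CPM at E15.5, against 15.7, 14.2 and 16.0 CPM at E13.5 (log2 change 1.40 ± 0.28, SE; edgeR adjusted p = 0.0254), and its 3′ UTR peak passed with the replicate block only (adjusted p = 0.0478). Neither gene overlapped between the ages. Gad1, the enzyme of GABA synthesis, had a log2 change of 1.07 and did not pass (edgeR adjusted p = 0.261).

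Stau2 and the lineage markers named beside it here did not pass. Stau2 had 79.7, 106 and 112 CPM at E15.5, against 86.7, 112 and 108 CPM at E13.5, and Stau1, its paralog, had a log2 change of 0.35. Eomes, the factor of intermediate progenitors, had 135, 89.7 and 160 CPM at E15.5, against 135, 157 and 113 CPM at E13.5. The libraries of both ages overlapped for these genes, and for Pax6 and Sox2 of radial glia and Tbr1 of deep-layer neurons. Fezf2, also of deep-layer neurons, did not overlap but stayed short of the threshold, with a log2 change of 0.40 (edgeR adjusted p = 0.643). Non-overlap alone held for 14.3% of genes tested.

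No single peak was found to change apart from its gene. In the test of each peak against the rest of its gene, none of 9645 peaks in 3414 genes passed in edgeR. An unadjusted p under 0.05 held for 57. On simulated counts this test recovered 0% of 2-fold, 36% of 4-fold and 58% of 8-fold changes of single peaks, so real ones can be missed. False calls there were 42.1% of calls, or 10.1% with unchanged peaks of changed genes not scored. The smallest p belonged to a 3′ UTR peak of Polb, DNA polymerase beta, at chr8:22639602-22639900, which had 0.367, 0.274 and 0.111 CPM at E15.5, against 3.06, 1.01 and 3.07 CPM at E13.5. Its log2 change apart from the rest of its gene was -2.31 (edgeR adjusted p = 0.0828, and 0.0351 with the replicate block). The next were intron peaks of the gene model Gm47283, named after its values were seen, with adjusted p-values of 0.523 and 1. Its 4 peaks had log2 changes of -0.27, -2.14, -1.95 and 0.09, and the intron ones were called as lower at E15.5. Tmod3 and Cks1b, which followed, had adjusted p-values of 1.

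**Figure D4:**
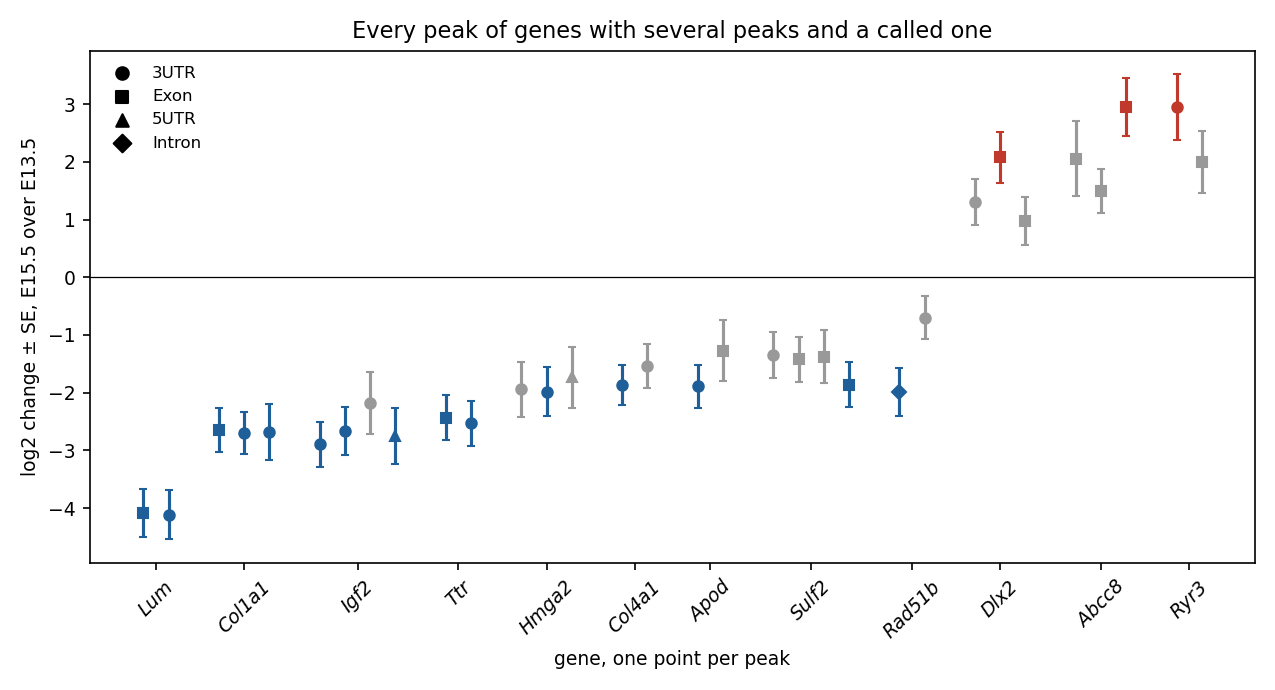
Log2 change ± SE (E15.5 over E13.5) of every tested peak of the 12 named genes with several peaks and at least one called; marker shape gives the location and grey points did not pass the test. Within each of these 12 genes all peaks have the same sign, which does not hold for the gene model Gm47283, not drawn; an example is Igf2, at -2.89, -2.66, -2.18 and -2.75.

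By the location recorded in the peak list, 26 of the fallen features were in 3′ UTRs, 9 in exons, 3 in introns and 1 in a 5′ UTR. The risen ones were 4 in 3′ UTRs and 2 in exons. Of the tested features, 6640 were recorded as 3′ UTR, 5868 as exon, 467 as intron and 1126 as 5′ UTR. By the exon class with the largest overlap in GENCODE vM21, 24 called features were 3′ UTR, 14 coding exon, 3 noncoding exon and 1 5′ UTR. The other 3 overlapped no exon. Intron bases were not weighed against exon bases, and ties went to coding exon. A peak counted as exon can thus lie mostly outside exons, as did that of Abcc8, with 77 of 405 bases in coding exon. Peaks in 3′ UTRs held 39.67 ± 1.575% of gene-row counts at E15.5 and 34.08 ± 0.516% at E13.5 (SD, n = 3 each), and intron peaks 25.9 ± 3.095% at E15.5 and 32.38 ± 1.648% at E13.5. Neither location overlapped between the ages, and both had p = 0.1 in a two-sided exact permutation test, the smallest that 3 libraries against 3 allow. Without the 10 highest rows, the intron difference was -1.29 percentage points in place of -6.47.

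The called features were picked by the middle step, which shares libraries with the steps on either side. Of all tested features, 7.18% were lower at E17.5 than at E15.5 and 5.89% were higher. Over the 4 stages, 20 of the 39 fallen features were also lower at E17.5 than at E15.5, and 1, Tpd52l1, was higher. Its step differed from the next one (difference of log2 changes -5.89; edgeR adjusted p = 0.0455), which held for 0.0922% of features, and 0.929% differed from the step before. From E11.5 to E13.5, 16 of the 39 had fallen and 8 had risen, against 7.88% and 9.36% of all tested features. Ttr and Dcn were among those that had risen. The Ttr exon peak averaged 4.29 CPM at E11.5, 342 CPM at E13.5, 63.5 CPM at E15.5 and 1.30 CPM at E17.5. Dcn averaged 3.27, 43.1, 5.14 and 0.494 CPM over the same stages. Igf2 fell through all 4, its 5′ UTR peak averaging 2040, 156, 23.1 and 4.14 CPM. Of the 6 risen features, 3 rose again at E17.5, those of Ap3b2, Sybu and Ryr3. The Dlx2 peak had fallen from E11.5 to E13.5, averaging 14.3, 2.29, 9.63 and 20.8 CPM.

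**Figure D5:**
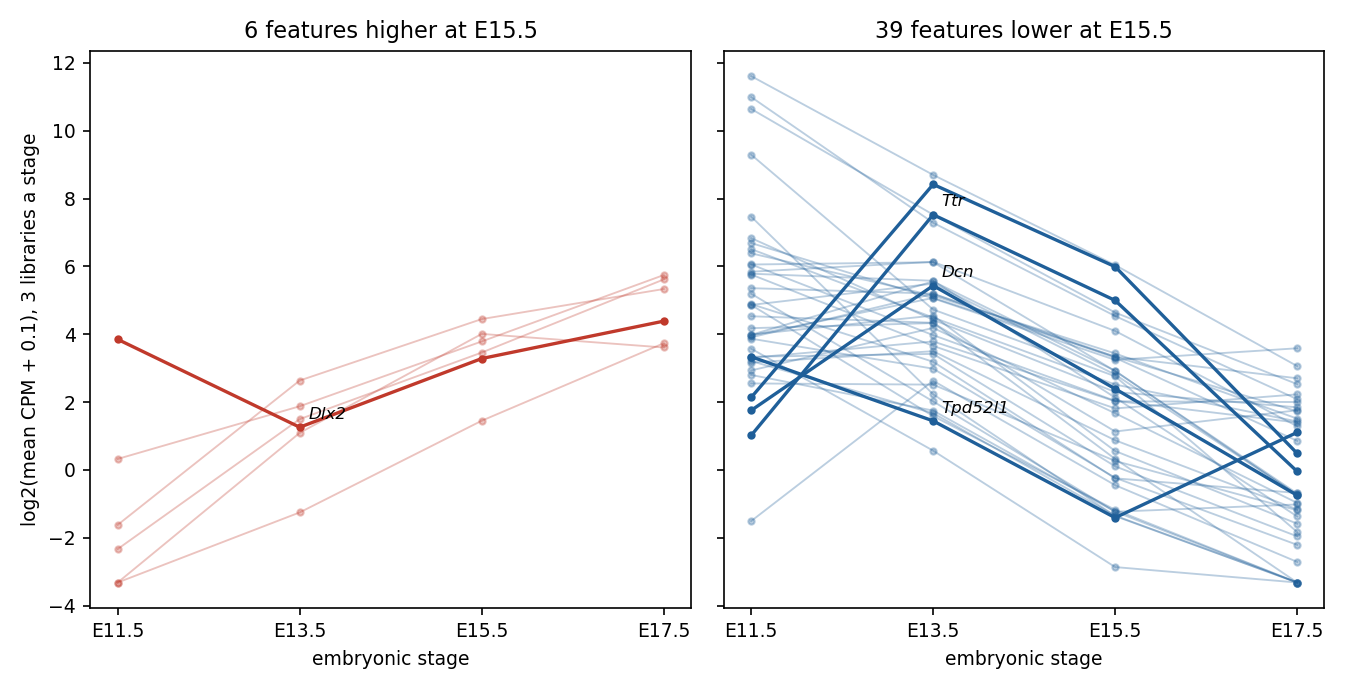
Mean CPM of 3 libraries at each stage, as log2 with 0.1 added, for the 6 features higher (left) and the 39 lower (right) at E15.5 than at E13.5; each line is a feature. The Ttr and Dcn peaks are highest at E13.5, and Tpd52l1 and Dlx2 change direction.

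Some large changes, called or not, rested on few counts. Among called genes, Six2 had 7 counts at E15.5 and 99 at E13.5, Pf4 7 and 68, and Tpd52l1 7 and 58. Twist1 had 8 and 89, Tfap2b 8 and 63, and Zfp568 8 and 73. The changes that follow were outside the calls. Sox10, a factor of oligodendrocyte precursors, had 14 counts at E15.5 and 0 at E13.5, at least 4.19-fold higher against a floor of 3 counts over the group, and Ptk2b, a kinase, had 11 and 0, at least 3.29-fold higher. Fam163b had 3.67, 2.06 and 0.891 CPM at E15.5, against 0.418, 0 and 0.128 CPM at E13.5 (edgeR adjusted p = 0.056, and 0.0164 with the replicate block). Cilp2 and, among those lower, Trabd2b had log2 changes of 2.97 and -3.21. Sox10, Ptk2b, Fam163b, Cilp2 and Trabd2b did not pass in the fit without the block.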

How the data were processed

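STAU2 immunoprecipitates of mouse cortex at 4 stages, 3 libraries each, were read from the authors' deposited table of whole-number counts per merged peak. HOMER 4.10 and the builds mm10 and GRCm38 are named per the submitters' processing notes; no source used here gives the aligner or counting settings. The deposited peak score, of unstated origin, served only for an alternative that kept peaks above its median. Intergenic rows, which held even counts throughout, were left out, as were 170 rows without a symbol. Gene names are those of the table, and 14100 of 14101 tested features overlapped their gene in GENCODE vM21.

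Counts were tested with edgeR 4.0.16 in R 4.3.3 (TMM scaling over gene rows, filterByExpr, quasi-likelihood test with stage as the term over 12 libraries, Benjamini-Hochberg adjustment over all features or all genes). Gene sums add the rows of a gene. Single peaks were tested against the rest of their gene with diffSpliceDGE. Scripts were tested on simulated counts; there, the test of single peaks had a lower recovery than the others and more false calls than its nominal rate. RNALfold 2.7.2 predicted stems. DESeq2 1.42.0, limma 3.58.1, other scalings, filters, blocks and omitted libraries were alternatives. Deviations of same-numbered libraries of both ages were weakly correlated (0.11, 0.14 and 0.16, all above the 0.1 set as the limit). Pairs of unlike number had correlations of -0.21 to 0.08. A fit with the number as a block was therefore set beside the reported fit, which has no block. The labels give no reason for the pairing. No 2 libraries agreed within sampling noise. The members and gene lists were chosen with earlier results of these data known.

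Named genes were those with a called feature, up to 4 per list by smallest p, up to 10 called as gene sums alone, the 3 peaks furthest by p from their gene, a fixed set of cortical markers, and the 5 highest and 5 lowest uncalled features with an unadjusted p under 0.01; not all of these are named in the text, and Cdh5, Kdr and others set beside them were picked as defining markers. One of the fixed cortical markers is not reported here. The counting floor was 3 counts.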

Additional observations from a re-analysis of the deposited data

Results flagged for a closer look

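For 15 called features the change at E15.5 against E13.5 differed from that at E13.5 against E11.5 (edgeR, the difference of the steps tested over all features). This held for 0.929% of all tested features. The called features were picked by the E15.5 against E13.5 change, which is part of this difference. Their count is therefore descriptive and not an independent result. The differences of log2 changes were -9.08 and -8.73 for the Ttr 3′ UTR and exon peaks, -7.80 for Slc22a6, -6.79 for Dcn, -4.63 and -3.92 for the Lum exon and 3′ UTR peaks, -4.23 and -3.33 for the called Col1a1 exon peak and one of its 3′ UTR peaks, -3.81 for Col6a2, -3.37 for Pcp4l1, -3.29 for Col1a2, -3.28 for Col3a1, -3.17 for Apod, -2.85 for Cd248 and 4.72 for Dlx2. For Tpd52l1 the step differed from the next one, E17.5 against E15.5, by -5.89. The 2 steps compared share the libraries of the middle stage.

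Rows outside the comparison, almost all recorded as intergenic, held a large part of the counts: 57.4% in the median E15.5 library and 56.0% in the median E13.5 library, with intergenic counts halved because rows shared with a gene row were exactly double it.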

How the results depend on the processing

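The 45 called features became 75 with the replicate block and 107 with the block in the 6 libraries alone (34 higher, 73 lower), 100 by DESeq2 (33 higher, 67 lower) and 28 among peaks scored above the median; leaving out 1 library gave 19 to 31. The 53 genes became 134 by DESeq2 (55 higher, 79 lower) and 11 to 35 without 1 library; by the gene-row total 29 were higher and 29 lower, and by the total of all peaks 21 and 28. The replicate block gave 63 genes, and 79 in the 6 libraries alone; over 12 libraries it kept the calls of all 45 features and, among named gene sums, ended that of Cdca3 and added that of Nid1. The 12 meninges and mesenchyme genes became 6 to 12 without 1 library. The 13 features whose step differed from the next became 39 and 95 under the gene-row and all-peak totals, 38 with the replicate block and 3 to 10 without 1 library; the 131 that differed from the step before became 1373, 1580, 227 and 64 to 156. Single peaks apart from their gene went to 1 with the block. Against the all-peak total the 3′ UTR share differed by 1.98 and the intron share by -3.23 percentage points; without the 10 highest rows the differences were 3.94 (3′ UTR), -2.20 (exon), -0.454 (5′ UTR) and -1.29 (intron).

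Uncalled genes near 0 turned sign: Eomes to 0.13 and 0.11 and Stau2 to 0.14 and 0.10 under the gene-row and all-peak totals, Ndufb8 to 0.03 under the gene-row total, and Pax6 to -0.16 and -0.18 with the block over 12 and 6 libraries and -0.19 by limma-voom. Without 1 library each, Pax6 ranged over -0.87 to 0.40, Tbr1 over -0.12 to 0.23, Eomes over -0.26 to 0.13, Stau2 over -0.15 to 0.09, Ndufb8 over -0.46 to 0.25, Neurod6 over -0.02 to 0.56 and Rgs16 over -0.13 to 1.68. The causes were not tested. Of the called features, those of Lum, Col1a2, Col3a1, Dcn, Six2, Bmp4, Cped1, Pcp4l1 and Ttr, 2 of Col1a1 and 2 of Igf2 kept their call whichever library was left out.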
